A study of Mus musculus with 6 samples.

Results

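The miR-181 family was described in small RNA from vesicles released by dying osteoblasts. Its members were every entry of the deposited table named mmu-miR-181a, mmu-miR-181b, mmu-miR-181c or mmu-miR-181d with any arm or copy suffix, which gave 8 of 1712 entries: 4 from the 5p arm (mmu-miR-181a-5p, mmu-miR-181b-5p, mmu-miR-181c-5p and mmu-miR-181d-5p) and 4 from the 3p arm (miR-181a-1-3p, miR-181a-2-3p, miR-181c-3p and miR-181d-3p). The mmu- prefix, for mouse, is left out below. The control group was 3 libraries from SIRT6f/f mice, which carry floxed alleles of the deacetylase gene Sirt6 and no Cre. The knockout group was 3 libraries from Prx1cre;SIRT6f/f mice, which carry the same floxed alleles and a Cre transgene driven by the Prx1 enhancer, active in limb bud mesenchyme. In both groups, apoptosis was induced in cultured osteoblasts, which were then kept without serum, and the vesicles they shed were pelleted at high speed. The labels give no age or sex. They also do not say whether the replicates are separate animals or cultures, so the p-values speak for these libraries only. In the limma tests of single entries the spread was pooled over entries of similar level, and an entry's own spread hardly entered. Sirt6 mRNA is not measured by small RNA sequencing, so its loss was not checked here.

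A miRNA is cut from a hairpin precursor, and one strand of the resulting duplex, 5p or 3p, is usually loaded into an Argonaute protein while the other is degraded. The loaded strand pairs with target mRNAs mainly through its seed, bases 2 to 8 from the 5′ end, and lowers their stability or translation. miR-181 is known as an abundant regulator of lymphocyte development and T cell receptor sensitivity, is also abundant in brain, and has been described in osteoblast differentiation through components of TGF-beta signalling.

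The 4 mature 5p sequences are shown first because they share 1 seed, given in capitals (RefSeq, GRCm38.p6, where all 8 entries were matched by name).
miR-181a-5p: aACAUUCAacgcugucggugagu
miR-181b-5p: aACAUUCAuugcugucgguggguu
miR-181c-5p: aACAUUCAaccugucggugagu
miR-181d-5p: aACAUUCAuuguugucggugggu

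No mature miRNA name in the RefSeq table other than these 4 carries that seed. Counted from 1 at the 5′ end, miR-181b-5p differs from miR-181a-5p by A9U, C10U and A21G and is 1 base longer. miR-181d-5p differs from miR-181b-5p by C12U alone and is 1 base shorter. In miR-181c-5p the base at position 11 of miR-181a-5p is absent. These miRNAs differ by few bases, and the handling of reads with a mismatch by the authors is not stated in their labels.

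The 3p sequences are shown because they separate the gene copies, which the 5p arms of miR-181a and miR-181b do not. Their seeds are again in capitals.
miR-181a-1-3p: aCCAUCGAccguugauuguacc
miR-181a-2-3p: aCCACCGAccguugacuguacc
miR-181c-3p: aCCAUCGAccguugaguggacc
miR-181d-3p: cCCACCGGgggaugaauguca

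The 3p arm of copy 2 of miR-181a differs from that of copy 1 by U5C, inside the seed, and U16C. miR-181c-3p shares its seed with miR-181a-1-3p and differs from it by U16G and U19G. RefSeq holds 10 mature miR-181 names, and the 3p arms of both miR-181b copies, miR-181b-1-3p and miR-181b-2-3p, were not among the entries analysed here, so arm use of miR-181b could not be given.

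The family comes from 6 hairpins at 3 loci (GENCODE M21, GRCm38). Mir181a-1 (chr1:137966455-137966541, plus strand) and Mir181b-1 (chr1:137966639-137966718) lie 97 bases apart in an intron of the noncoding gene Gm4258. Both also overlap the long noncoding RNA A430106G13Rik, Mir181a-1 partly over an exon and Mir181b-1 within an exon. Mir181a-2 (chr2:38852735-38852810, plus strand) and Mir181b-2 (chr2:38853830-38853918) lie 1019 bases apart, opposite in strand to an intron of Nr6a1, which encodes an orphan nuclear receptor. Mir181d (chr8:84178716-84178787, minus strand) and Mir181c (chr8:84178873-84178961) lie 85 bases apart in an intron of Nanos3, a germ cell gene, on its strand. The precursors of both miR-181a copies and of miR-181d are shown 5′ to 3′ because the results on arm use turn on them. Capitals mark the 5p arm and then the 3p arm.
Mir181a-1: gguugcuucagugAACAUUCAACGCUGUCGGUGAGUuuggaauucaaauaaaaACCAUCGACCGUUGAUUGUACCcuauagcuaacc
Mir181a-2: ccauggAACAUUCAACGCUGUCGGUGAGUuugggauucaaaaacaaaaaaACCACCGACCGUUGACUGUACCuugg
Mir181d: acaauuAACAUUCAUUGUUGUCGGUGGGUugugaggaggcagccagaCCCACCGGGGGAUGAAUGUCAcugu

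Levels are given as RPM, reads normalised to all reads listed for a library, so they are shares and not amounts of RNA. Depths recovered from the RPM steps ran from 1352045 to 1838239 reads. Entries with a mouse miRNA name, called named entries, held 50.0% to 56.9% of the reads in the control libraries and 37.2% to 47.2% in the knockout libraries, the rest being entries with a numeric ID only. Knockout replicate 3 stood apart with the lowest share, 37.2%, and the fold changes of the members and the family differences are also given without it. Markers of the mesenchymal lineage, to which osteoblasts belong, such as miR-143-3p and miR-199a-5p, were abundant: 11 of 12 were listed, with a summed level of 157855 to 181561 RPM in the control and 65063 to 119445 RPM in the knockout libraries. Blood cell markers (8 of 9 listed) summed to 630 to 888 and 263 to 485 RPM, endothelial markers (4 of 4) to 85.1 to 105 and 23.4 to 52.2 RPM, neural markers (2 of 5) to 17.2 to 34.0 and 4.35 to 23.7 RPM, and epithelial markers (6 of 6) to 21.4 to 25.2 and 16.9 to 31.1 RPM. The neural marker miR-124-3p was not listed, nor were miR-9-3p, miR-219a-5p, the mesenchymal miR-199a-3p and the red cell miR-486a-5p. Entries with the related names miR-199b-3p and miR-486b-5p were listed, at means of 6564 and 426 RPM. miR-486b-5p was in the blood cell list. miR-199b-3p was outside the mesenchymal list and its sum, with a log2 fold change of -0.95 (limma adjusted p = 0.0456). By limma, 2 of 11 tested mesenchymal and 2 of 7 tested blood cell markers were lower, against 2.69% of all tested entries, and none was higher, against 2.15%. At an unadjusted limma p under 0.05, 8 of the mesenchymal and 5 of the blood cell markers were lower, against 14.6% of all tested entries. So were 3 of 4 tested endothelial, 1 of 2 neural and 0 of 4 epithelial markers. In each of these lists 0 were higher, against 5.39%. The blood cell and endothelial sums were lower in every knockout than in every control library, as the miR-181 total was, and their part in the miR-181 values was not tested.

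The family was carried by miR-181a-5p and miR-181b-5p, and both were lower in every knockout library than in every control library, without passing the adjusted threshold. miR-181a-5p, the most abundant member and number 43 of the 1528 named entries by mean level, had 2039, 1734 and 1836 RPM in control replicates 1, 2 and 3 and 1271, 1299 and 662 RPM in knockout replicates 1, 2 and 3. The lowest control library was above the highest knockout library, and knockout replicate 3 was far below the other knockout libraries. Its exact Poisson 95% interval, 625 to 700 RPM from 1217 reads, lay below that of knockout replicate 1, 1216 to 1327 RPM, so the gap was larger than counting error. The group means were 1869.7 ± 155 and 1077 ± 360 RPM (SD, n = 3 each). The log2 fold change on the log2(RPM + 1) scale was -0.86 ± 0.29 (SE), with a Benjamini-Hochberg adjusted p = 0.0567 over the 1114 entries tested by limma. Without knockout replicate 3 it was -0.54 (limma adjusted p = 0.0687). A smaller number of vesicles carrying it, less of it in each and more of other RNAs beside it cannot be told apart from shares in bulk libraries.

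miR-181b-5p, which shares the seed and comes from the hairpin next to each miR-181a copy, had 534, 454 and 431 RPM in the control and 321, 317 and 242 RPM in the knockout libraries. The groups did not overlap, and knockout replicate 3 was again the lowest. The means were 473 ± 53.9 and 293 ± 44.9 RPM (SD, n = 3 each), and the log2 fold change was -0.69 ± 0.29 (SE, limma adjusted p = 0.139), or -0.56 without knockout replicate 3. It ranked 76 among the named entries.

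**Figure D1:**
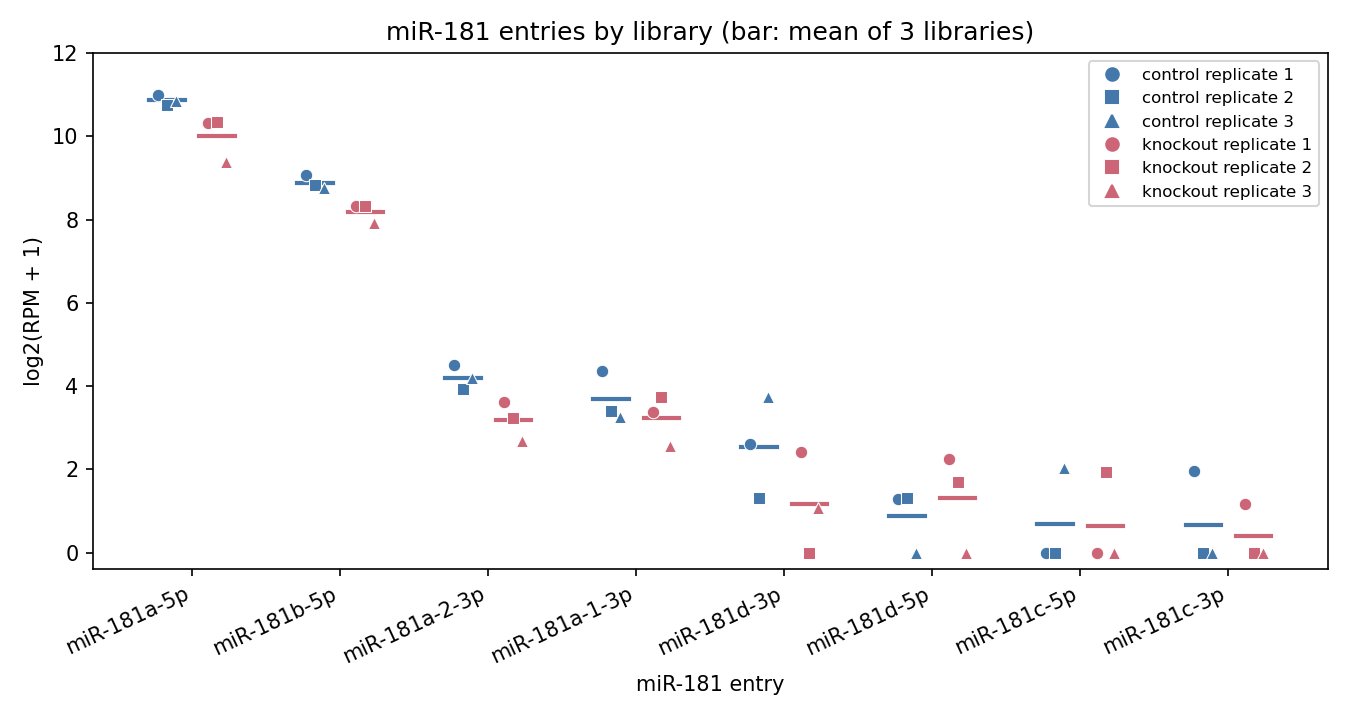
Level of each miR-181 entry, as log2(RPM + 1), in the 6 libraries; blue symbols are control and red symbols knockout libraries, symbol shapes are replicates, and bars are means of 3 libraries. miR-181a-5p and miR-181b-5p sit far above the other 6 entries, and for both all knockout libraries lie below all control libraries.

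The 3p arms of miR-181a were present at a low level from both gene copies. miR-181a-2-3p had 21.6, 14.1 and 17.2 RPM (30, 19 and 28 reads) in the control and 11.2, 8.47 and 5.44 RPM (18, 15 and 10 reads) in the knockout libraries. The groups did not overlap, but the counting intervals were wide, for example 2.61 to 10.0 RPM in knockout replicate 3. Its log2 fold change was -1.02 ± 0.50 (SE, limma adjusted p = 0.229), or -0.77 without knockout replicate 3. miR-181a-1-3p had 19.5, 9.62 and 8.60 RPM in the control and 9.33, 12.4 and 4.90 RPM in the knockout libraries. Here the groups overlapped, control replicate 1 and knockout replicate 2 being the highest of their groups, and the log2 fold change was -0.45 ± 0.52 (SE, limma adjusted p = 0.700). It rested on single libraries, being -0.11 without control replicate 1, -0.12 without knockout replicate 3 and -0.71 without knockout replicate 2.

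The products of the Mir181c and Mir181d hairpins were near the lower end of what the libraries can show, where 3 reads correspond to 1.63 to 2.22 RPM. miR-181d-3p had 5.05, 1.48 and 12.3 RPM in the control and 4.35, 0 and 1.09 RPM in the knockout libraries. miR-181d-5p had 1.44, 1.48 and 0 RPM in the control and 3.73, 2.26 and 0 RPM in the knockout libraries. For both the groups overlapped, and the log2 fold changes were -1.39 ± 0.73 and 0.45 ± 0.75 (SE, limma adjusted p = 0.265 and 0.767). The value of miR-181d-3p went to -0.79 without control replicate 3 and to -0.80 without knockout replicate 2, and was -1.34 without knockout replicate 3. That of miR-181d-5p went from -0.01 without knockout replicate 1 to 1.11 without knockout replicate 3, so its direction was not settled. miR-181c-5p was listed above 0 in 2 libraries, at 3.07 RPM in control replicate 3 and 2.82 RPM in knockout replicate 2. miR-181c-3p was also above 0 in 2 libraries, at 2.88 RPM in control replicate 1 and 1.24 RPM in knockout replicate 1. Neither miR-181c entry reached 1 RPM in 3 libraries, so neither was tested.

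In order of mean level over the 6 libraries the entries were miR-181a-5p (1473 RPM), miR-181b-5p (383), miR-181a-2-3p (13), miR-181a-1-3p (10.7), miR-181d-3p (4.04), miR-181d-5p (1.49), miR-181c-5p (0.983) and miR-181c-3p (0.688). The lowest value of miR-181a-5p was above the highest of miR-181b-5p, and the lowest of miR-181b-5p was above the highest of miR-181a-2-3p. From miR-181a-2-3p downward, the ranges of neighbours overlapped. The mature sequences are 21 to 24 bases long and RPM is not divided by length; differences in capture between sequences were not tested.

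None of the 6 tested members passed the threshold in either direction by limma, against 2.69% of all tested entries called lower and 2.15% called higher. At an unadjusted p under 0.05, 3 of the 6 were lower and 0 higher, against 14.6% and 5.39% of all tested entries. The groups did not overlap, with all knockout libraries lower, for 3 of the 6 tested members, against 19.3% of all tested entries. Of the 4 members with a mean of at least 10 RPM this held for 3, against 43.5% of the 354 tested entries at that level. The median log2 fold change of the 6 members was -0.77, with 5 below 0. It was -0.27 over all tested entries, with 60.1% below 0, and -0.60 over the 266 named entries outside the fragment-like list with a mean of at least 10 RPM, with 80.5% below 0. The fragment-like list holds 8 annotated entries, miR-6236 and miR-6239 among them, that may be fragments of other RNAs. These members passed a filter on low values, and those of 1 hairpin or 1 seed are not independent of each other.

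**Figure D2:**
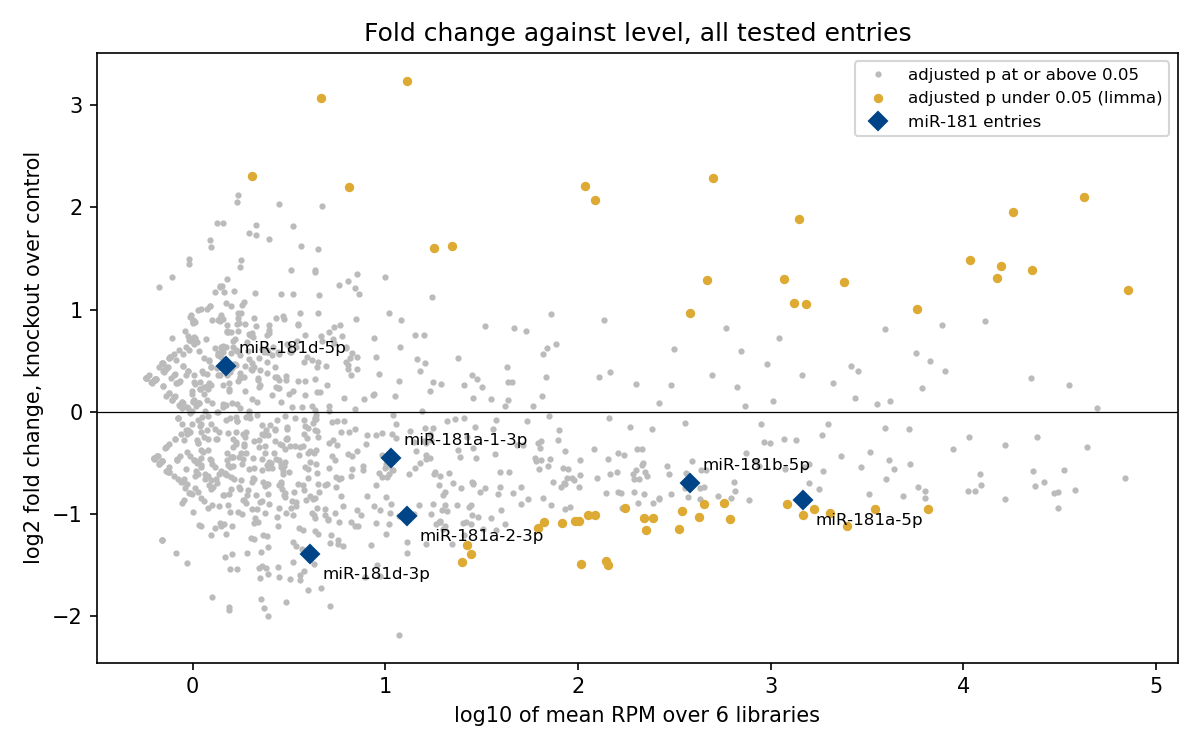
Log2 fold change of knockout over control against the log10 of mean RPM for the 1114 tested entries; gold points passed the limma threshold, grey points did not, and blue diamonds are the 6 tested miR-181 entries. miR-181a-5p and miR-181b-5p lie at -0.86 and -0.69, inside the band of abundant entries below 0.

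Summed over the 8 entries, the family took 2623, 2215 and 2308 RPM in the control and 1622, 1642 and 915 RPM in the knockout libraries. All knockout libraries were below all control libraries. The means were 2382 ± 214 and 1393 ± 414 RPM (SD, n = 3 each), a ratio of 0.585 (exact 2-sided permutation p = 0.10; with 3 libraries in each group no smaller p is possible). Without knockout replicate 3 the difference went from -989 to -750 RPM. Because RPM depend on how much of a library the unnamed entries take, the family was also set against the named entries alone. As a share of named entries it took 0.461%, 0.443% and 0.458% in the control and 0.355%, 0.348% and 0.246% in the knockout libraries (ratio of means 0.696, exact permutation p = 0.10). The difference was -0.138 percentage points, and -0.103 without knockout replicate 3. The groups did not overlap on this scale either, nor with the fragment-like entries left out of the denominator, where the ratio was 0.798 (exact permutation p = 0.10).

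Against the mesenchymal markers the family kept nearly the same proportion in every library. The log2 ratio of the miR-181 total to the marker total came to -6.11, -6.16 and -6.13 in the control and -6.18, -6.19 and -6.15 in the knockout libraries. The groups overlapped, with means of -6.13 ± 0.02 and -6.17 ± 0.02 (SD, n = 3 each, exact permutation p = 0.200, adjusted p = 0.267 over 4 such ratios). This ratio was chosen after the data were seen, and the marker list holds entries from the same libraries that share their composition.

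**Figure D3:**
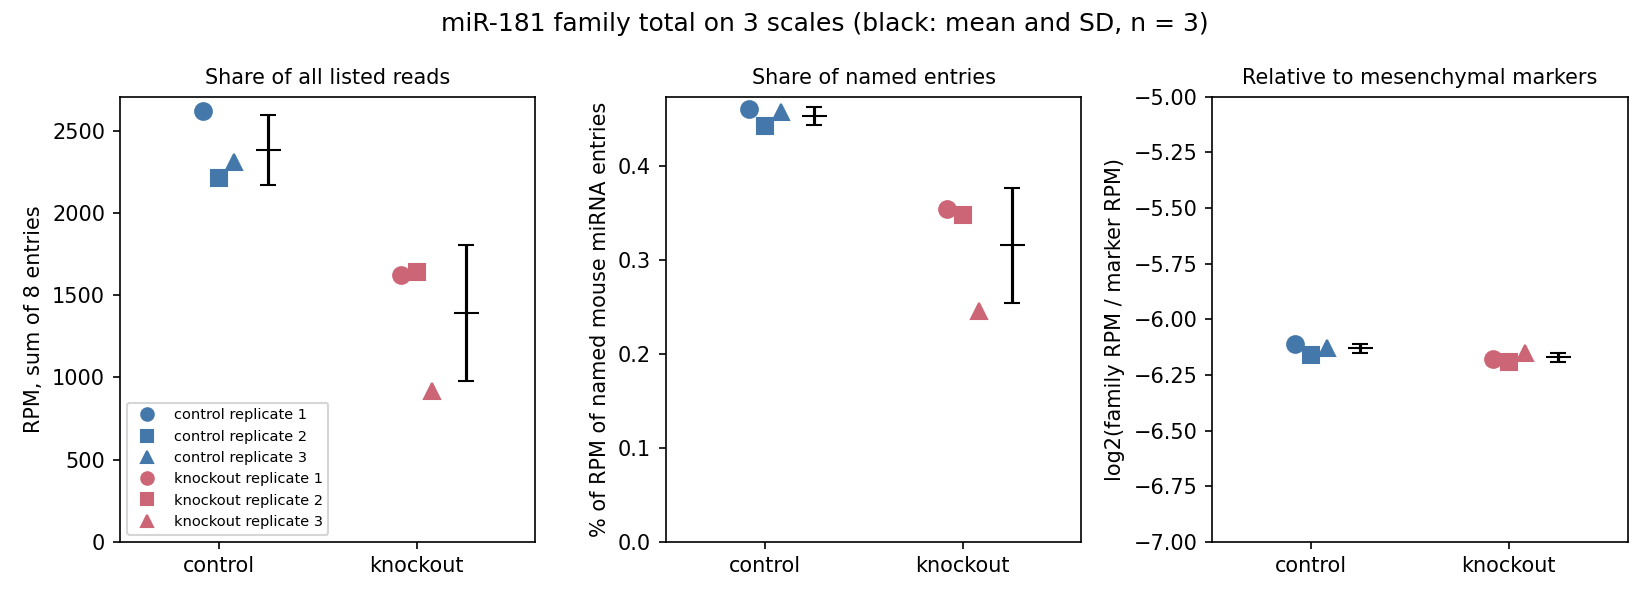
Sum of the 8 miR-181 entries as RPM (left), as percent of the RPM of named entries (middle) and as log2 ratio to the summed mesenchymal markers (right), for each control (blue) and knockout (red) library, with mean and SD in black. The left and middle panels show separate groups, with knockout replicate 3 lowest at 915 RPM and 0.246%, while on the right all libraries lie between -6.19 and -6.11.

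When libraries were rescaled to named entries, the log2 fold change of miR-181a-5p was -0.58 ± 0.21 and that of miR-181b-5p -0.42 ± 0.18 (SE, limma adjusted p = 0.165 and 0.252). With the fragment-like entries also left out of the total, they were -0.38 ± 0.20 and -0.21 ± 0.17 (SE, limma adjusted p = 0.413 and 0.626), and miR-181a-1-3p was at -0.02. That scaling moved the median of all tested entries from -0.27 to 0.08. Of the 6 members, 5 stayed below 0 and miR-181d-5p above 0 under each of the 5 scalings tried. With quantile normalization miR-181a-5p was at -0.73 (limma adjusted p = 0.0447), and with the test limited to entries of a mean of at least 10 RPM it was at -0.86 (limma adjusted p = 0.0337), so its side of the threshold depended on the setting.

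**Figure D4:**
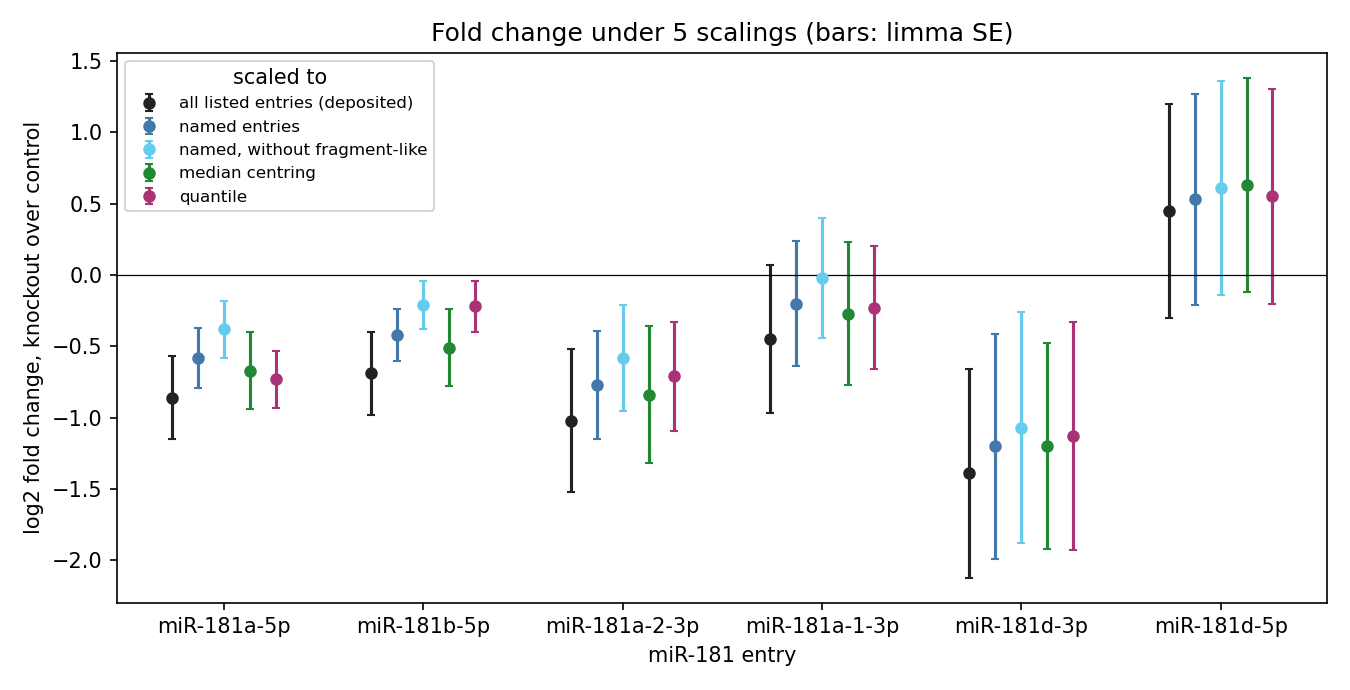
Log2 fold change of knockout over control, with limma SE, for the 6 tested miR-181 entries under 5 scalings, given by colour. miR-181a-5p moves from -0.86 with the deposited scaling to -0.38 when scaled to named entries without the fragment-like list, and the sign of no member differs between scalings.

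The makeup of the 5p seed family was nearly fixed outside 1 library. miR-181a-5p made up 79.8% ± 0.971 of the 5p total of the control group and 77.7% ± 3.82 of that of the knockout group (SD, n = 3 each, exact permutation p = 0.600, adjusted p = 1.0 over 4 members). By library, this came to 79.2%, 79.2% and 80.9% for the control group and 79.6%, 80.1% and 73.3% in the knockout libraries. Among the reads of miR-181a-5p and miR-181b-5p, miR-181b-5p took 26.7% in knockout replicate 3 (95% Wilson interval 24.7% to 28.9%, 444 of 1661 reads). In the other 5 libraries it took 19.0% to 20.8%, and the highest upper bound among them was 22.2%. Knockout replicate 3 thus had a ratio of miR-181a-5p to miR-181b-5p of 2.74, against 3.82 to 4.26 in the other libraries. Leaving it out turned the difference in the miR-181a-5p share from -2.09 to 0.113 percentage points. miR-181c-5p and miR-181d-5p were minor, at most 0.174% and 0.234% of the 5p total in any library.

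In the listed reads arm use differed by hairpin, a contrast that was not tested. For miR-181a the 5p arm dominated: the 3p reads of both copies together were 1.98%, 1.35% and 1.39% of all miR-181a reads in the control and 1.59%, 1.58% and 1.54% in the knockout libraries. The group means were 1.57% ± 0.352 and 1.57% ± 0.0285 (SD, n = 3 each), while the 95% Wilson intervals of single libraries ran from 0.955% to 2.55%. Because the 5p arm is the same for both copies, only the 3p reads can be given to a copy. Copy 1, Mir181a-1 on chromosome 1, gave 47.4%, 40.6% and 33.3% of the miR-181a 3p reads in the control and 45.5%, 59.5% and 47.4% in the knockout libraries. The groups overlapped (means 40.4% ± 7.02 and 50.8% ± 7.59, SD, n = 3 each), and with 19 to 57 reads per library the intervals were wide, 21.0% to 73.7% in all.

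In the reads listed under its names, the Mir181d hairpin did not show the 5p dominance of miR-181a. miR-181d-5p differs from the far more abundant miR-181b-5p by C12U and 1 base of length, and how reads were assigned between them was not tested. In the control libraries the 3p arm of Mir181d had 7, 2 and 20 reads and its 5p arm 2, 2 and 0. In the knockout libraries the 3p arm had 7, 0 and 2 reads and the 5p arm 6, 4 and 0. No entry was listed at 1 read, so a listed 0 may hide 1 read, and the shares below take it as 0. The 3p share over the summed control reads was 87.9% (29 of 33 reads, 95% Wilson interval 72.7% to 95.2%). Over the summed knockout reads it was 47.4% (9 of 19 reads, 27.3% to 68.3%). Control replicate 3 alone gave 20 of the 29 control 3p reads. These intervals cover counting error of pooled reads and leave out the spread between libraries. By library the 3p share was 77.8%, 50.0% and 100% in the control and 53.8%, 0% and 100% in the knockout group. No library listed both arms of miR-181c, and none held more than 5 reads of either arm.

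**Figure D5:**
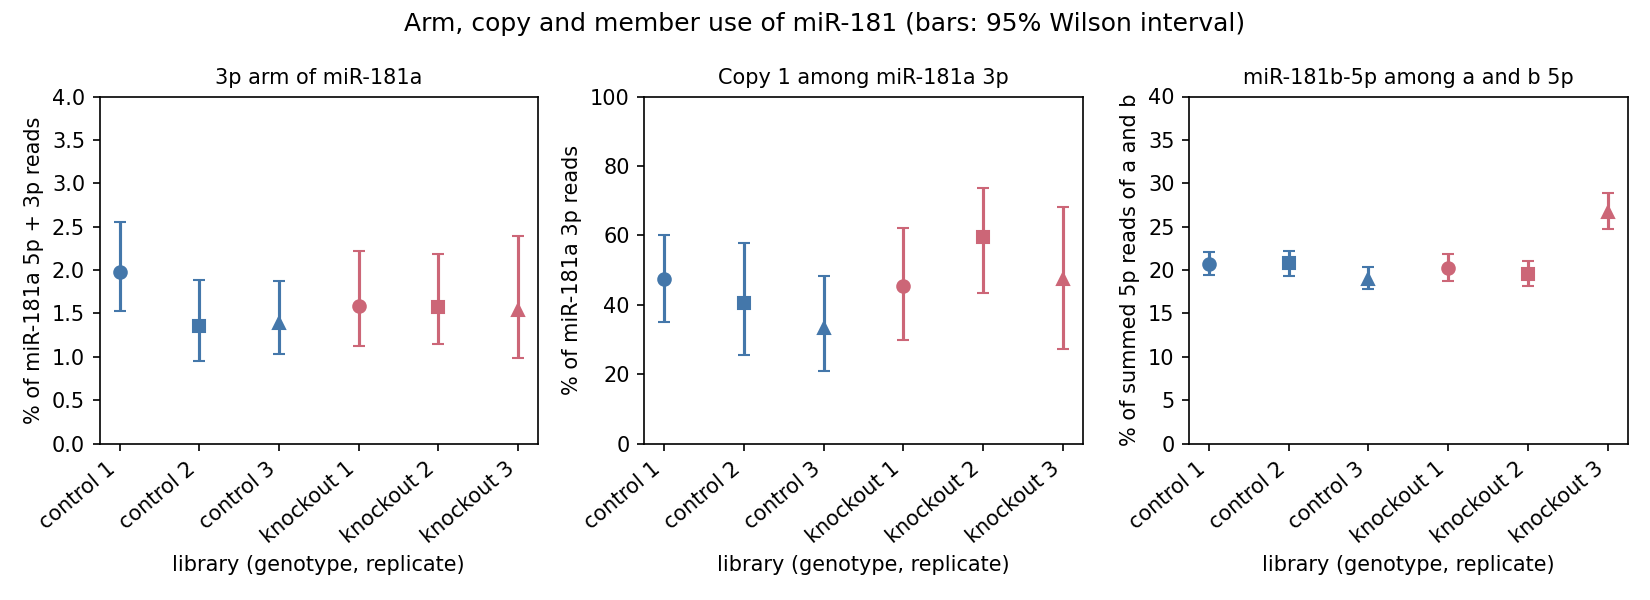
Share of 3p reads among miR-181a reads (left), share of copy 1 among miR-181a 3p reads (middle) and share of miR-181b-5p among the reads of miR-181a-5p and miR-181b-5p (right), in percent, for each control (blue) and knockout (red) library with its 95% Wilson interval. The 3p share stays between 1.35% and 1.98%, the copy shares overlap widely, and knockout replicate 3 stands alone on the right at 26.7%.

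The arm ratio was tested over the 234 hairpins of the table with both arms above the filter, on log2((5p RPM + 1)/(3p RPM + 1)). miR-181a-1 and miR-181a-2 ranked 19 and 21 for 5p over 3p among them, and miR-181d ranked 156. The median over all hairpins was -0.09, with 111 above 0. For miR-181a the 5p reads of both copies were set against the 3p reads of each copy alone. Both ratios can therefore only overstate the 5p arm of a copy, and the ranks rest on them. The ratio of the miR-181a-1 hairpin averaged 7.19 ± 0.49 over the control libraries and 6.78 ± 0.18 over the knockout libraries (SD, n = 3 each), a difference of -0.41 ± 0.38 (SE, limma adjusted p = 0.760). For miR-181a-2 it was 6.67 ± 0.18 and 6.83 ± 0.23, a difference of 0.16 ± 0.33 (limma adjusted p = 0.906), and for miR-181d -1.68 ± 1.89 and 0.15 ± 1.41, a difference of 1.83 ± 1.11 (limma adjusted p = 0.548). These differences moved with single libraries: miR-181a-1 ranged from -0.68 without control replicate 1 to -0.21 without control replicate 3, and miR-181a-2 from 0.03 without knockout replicate 2 to 0.25 without control replicate 2. For miR-181d the difference was 0.81 without control replicate 3 and 1.06 without knockout replicate 2. No miR-181 hairpin passed, and limma called 0% of the 234 hairpins, 26 of which had an unadjusted p under 0.05.

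Other seed families that are mostly 1-armed were compared to place the miR-181 5p total, whose ratio of knockout to control mean was 0.586; these families were picked after the data were seen. The let-7 5p arms with miR-98-5p (9 entries), which restrain growth genes, had a ratio of 0.623, the miR-30 5p arms (5 entries) 0.738 and the miR-29 3p arms (3 entries), which target collagen mRNAs, 0.477. Within libraries, the log2 ratio of the miR-181 5p total to the miR-30 5p total was -1.44, -1.64 and -1.47 in the control and -1.74, -1.81 and -2.09 in the knockout libraries, with no overlap (exact permutation p = 0.10, adjusted p = 0.267 over 4 ratios). The ratio to let-7 differed by -0.09 between the group means and that to miR-29 by 0.31, both with overlapping groups (exact permutation p = 0.600 and 0.200, adjusted p = 0.600 and 0.267). No difference from these families had a p under 0.05, a level that 3 against 3 libraries cannot reach.

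Among miRNAs with roles in osteoblast differentiation, 24 of the 28 names chosen were tested, of which limma called 3 lower and 0 higher, against 2.69% and 2.15% of all tested entries. At an unadjusted p under 0.05, 8 were lower and 0 higher, against 14.6% and 5.39%. Their median log2 fold change was -0.54, as it was over the 354 tested entries averaging 10 RPM or more. The 3 were miR-29a-3p (-1.12, limma adjusted p = 0.00664), miR-214-3p (-1.05, limma adjusted p = 0.0118), which restrains osteoblast differentiation, and miR-22-3p (-0.95, limma adjusted p = 0.0378). The lists overlap: miR-214-3p and miR-22-3p are also the 2 mesenchymal markers called lower. Abundant members that did not pass were miR-26a-5p (-0.78), miR-21a-5p (-0.24) and miR-140-3p (-0.84). Of 9 lymphoid and immune miRNAs, known beside miR-181 from blood cell development, 8 were tested and 0 passed in either direction by limma, 4 of them being lower at an unadjusted p under 0.05, against 14.6% of all tested entries, and the median was again -0.54. Their most abundant members were miR-146a-5p, a brake on inflammatory signalling (2231 ± 148 and 1521 ± 339 RPM), and miR-92a-3p of the miR-17 polycistron (793 ± 52.4 and 457 ± 129 RPM, SD, n = 3 each). miR-181a-5p at -0.86 and miR-181b-5p at -0.69 lay below both medians. They did not lie below those of all marker lists. These medians were -0.77 (mesenchymal), -1.03 (blood cell), -1.29 (endothelial), -0.90 (neural) and -0.14 (epithelial).

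The 5 named entries whose log2(RPM + 1) followed miR-181a-5p most closely over the 6 libraries, among 270 candidates with a mean of at least 10 RPM, were let-7e-5p (Pearson's r = 0.999), miR-140-3p (0.998), miR-24-3p (0.997), let-7d-3p (0.996) and miR-22-3p (0.996). let-7e-5p had nearly the same level as miR-181a-5p as well, at 2094, 1788 and 1879.9 RPM in the control and 1378, 1438 and 849 RPM in the knockout libraries. All 5 were lowest in knockout replicate 3. The correlation was 0.952 for miR-181b-5p, 0.951 for miR-181a-2-3p and 0.773 for miR-181a-1-3p, and the median over the candidates was 0.914. These values are descriptions: the 6 points share library composition and the separation of the groups, so a high r is common among all candidates.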

How the data were processed

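Small RNA was sequenced from vesicles of 3 control and 3 knockout libraries, grouped by the sample titles. The authors deposited 1 table of RPM values scaled to the same total per library over all 1712 entries, unnamed ones included. The tools listed per the submitters' processing notes are fastp and edgeR, with no role or version, the aligner, miRNA release and build being not given in the sources used here. Every RPM value was a whole number of reads within a tolerance of 0.001 read if the lowest non-zero value of a column stands for 2 reads. No entry was then at 1 read, so these are not complete counts: no count model was run. Reads carry no molecular identifiers, so intervals (95%) cover counting error only. Entries with at least 1 RPM in at least 3 libraries (1114) were tested on the log2(RPM + 1) scale with limma 3.58.1 under R 4.3.3, its prior following the mean, in a 2-sided test, called at a Benjamini-Hochberg adjusted p under 0.05 over all tested entries. The pseudocount understates changes of low entries. The prior took the whole weight, so an entry's own spread hardly entered its SE. Totals, shares and within-library ratios were compared with exact 2-sided permutation tests (scipy 1.17.1). Arm ratios were fitted with limma over 234 hairpins; an arm listed once for several copies was paired with each. The tests were tried on simulated data. For limma these data held no shift in library composition, so the trial does not bear on the shift seen here. Named entries were all members, the 5 entries most correlated with the most abundant member, up to 4 abundant entries per list, and those past the threshold. Members and lists were chosen with earlier results of these data known, and the let-7, miR-30 and miR-29 ratios and the ratio to mesenchymal markers were added after the data were seen. Alternatives were other pseudocounts, filters, scalings, priors, a replicate block and leaving out each library.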

Additional observations from a re-analysis of the deposited data

How the results depend on the processing

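The 6 tested miR-181 entries kept the sign of their log2 fold change under all alternatives run, except miR-181d-5p, which ranged from -0.01 to 1.11 over the libraries left out and was negative without knockout replicate 1. miR-181a-5p ran from -1.02 to -0.38 and passed the limma threshold only with quantile normalization (-0.73) and with a mean of at least 10 RPM (-0.86, fewer entries tested). miR-181b-5p ran from -0.76 to -0.21 and never passed. The arm ratio of miR-181a-2 turned to -0.08 with a pseudocount of 5. Without knockout replicate 3 the shares of miR-181a-5p and miR-181b-5p in the 5p total turned to 0.113 and -0.300 percentage points, the ranges over the libraries left out being -3.32 to 0.113 and -0.300 to 3.29; that of miR-181c-5p, from 2 libraries with reads, ranged from -0.0451 to 0.0581 over the libraries left out. The difference in the family total ranged from -1113 to -750 RPM over the libraries left out and was -413 RPM with scaling to named entries outside the fragment-like list. Depth limits what can be seen of the 3p arms, miR-181c and miR-181d, which held 0 to 30 reads per library.

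Over all entries, limma called 24 higher and 30 lower. With a pseudocount of 0.5, no filter, or a mean of at least 10 RPM, 15, 15 and 71 were lower. With scaling to named entries 5 were lower, with that outside the fragment-like list 38 were higher and 2 lower, with median centring 8 and with quantile normalization 16 were lower, and with a robust prior 17. Without the trend limma made 0 calls (unadjusted p under 0.05 for 55 higher and 75 lower entries). Leaving out 1 library gave 0 to 26 higher and 0 to 18 lower; both were 0 without control replicate 3 (53 and 84 with an unadjusted p under 0.05), and 0 were lower without control replicate 2 (128 with an unadjusted p under 0.05). Apart from the shown constructions (fewer entries tested, fewer libraries), the cause was not tested. Same-numbered libraries did not deviate together (correlations 0.01, -0.02 and 0.01). With 3 libraries in each group this cannot show whether the numbers pair them, and the labels do not say. With the replicate block limma called 11 lower, and miR-181a-5p stayed at -0.86 (limma adjusted p = 0.104). edgeR and DESeq2 were planned and not run, because complete reads could not be recovered.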
